A study of Mus musculus with 12 samples.

Results

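The AP-1 and small Maf factors examined here were 10 genes chosen by symbol, namely Jun, Junb, Jund, Fos, Fosb, Fosl2, Batf, Batf3, Maff and Mafg, out of 55335 genes listed for each library. All 10 were found in the annotation and all 10 passed the filter on low counts that left 14357 genes for testing. They were measured by bulk RNA-seq in bone marrow-derived dendritic cells (BMDC) of C57BL/6 mice, grown for 6 days with GM-CSF from the marrow of adult animals, and, by the methods of the study, taken from the floating cells by positive selection for CD11c. Every library came from cells with the Rosa26-CreER transgene and an intact Ctcf gene, which the study used as its wild type. The groups were WT (no LPS, no JSH-23), WTL (LPS at 100 ng/ml for 3 h), WT + JSH23 (JSH-23 at 100 µM for 3 h) and WTL + JSH23 (JSH-23 first, then LPS), with 3 libraries each. Lipopolysaccharide (LPS) is a bacterial product sensed through the receptor TLR4, and JSH-23 is a small molecule used to keep the NF-κB subunit RelA out of the nucleus. By the study's text, 4-hydroxytamoxifen was used to delete Ctcf in its knockout cells and not in wild type ones. That wording does not settle whether the wild type cultures also received the drug. The 3 libraries of a group are, by the same text, biological replicates. It is not given in the sources used here whether cells without JSH-23 were given its solvent, or whether those replicates came from separate mice, and p-values measure the spread between these libraries. In bulk RNA a lower level can mean fewer cells of a type or less RNA per cell, and these cannot be told apart here.

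AP-1 is not one protein but a set of dimers of basic leucine zipper proteins. Jun proteins (Jun, Junb, Jund) can pair with each other or with Fos proteins (Fos, Fosb, Fosl2), Batf proteins take the place of Fos as partners of Jun proteins and join IRF4 or IRF8 on composite DNA elements in immune cells, and small Maf proteins (Maff, Mafg), which lack a transactivation domain, pair with themselves or with Nrf2 and Bach proteins on antioxidant response elements. In cells that sense LPS, mitogen-activated protein (MAP) kinases and NF-κB act on these genes or their products, and Fos is a classic immediate early gene, switched on quickly and briefly. Batf3 is known for its role in the development of the cross-presenting type of dendritic cell.

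Total expected counts per library lay between 24664724 and 34837847, and the factors that scale the libraries (TMM) ran from 0.859 to 0.880 in WTL and from 1.11 to 1.12 in WT + JSH23. Summed CPM (counts over the TMM-scaled library size) of 6 dendritic cell markers (Itgax, Flt3, Zbtb46, Cd74, H2-Ab1 and Ccr7) differed between the groups without overlap. The sums lay from 12389 to 12623 in WT and from 14469 to 15406 in WTL. They were 11898 to 12275 in WT + JSH23 and 12963 to 14227 in WTL + JSH23. Cd74 was the largest part of the sums, at 8291 to 8489 CPM in WT, and the dendritic cell markers did not all move together. In WT + JSH23, Ccr7 (1519 to 1617 CPM, against 1221 to 1364 in WT) and Zbtb46 were higher than in WT. Cd74, H2-Ab1, Itgax and Flt3 were lower there. Summed CPM of 7 macrophage markers differed between the groups without overlap, with all 7 detected in each group. These sums were 2373 to 2537 in WT, 1888 to 2000.3 in WTL, 1760.3 to 1794 in WT + JSH23 and 1540.2 to 1563 in WTL + JSH23. The macrophage markers did not move together. Csf1r had 1101.25 to 1175.05 CPM in WT and 638.1 to 728.1 CPM in WTL. Fcgr1, C1qa and Cd68 were also lower in WTL. Adgre1 (220.03 to 228.2 CPM in WT, 261.4 to 271.9 CPM in WTL) and Mertk were higher with LPS, and C1qb overlapped. In WT + JSH23, Cd68 was higher than in WT (219.8 to 231.4 against 169.8 to 183.1 CPM). The other macrophage markers were lower there. The sums of 8 neutrophil markers were 57.1 to 58.5 CPM in WTL and lay between 37.8 and 45.4 CPM in the other groups. The summed markers of mast cells and basophils, T cells, B cells and erythroid cells were each at 2.36 CPM or lower. Hba-a1 was at 0 in every library. The part of these cell types in the values below was not tested. WTL + JSH23 replicate 3 stood further from its group than other libraries did (mean chi-square per gene of 8.19 and 9.12 against the other two, and 2.32 to 4.50 in the other pairs), and without it no call and no direction of the 10 genes changed in any comparison.

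The DNA just before the start sites of 4 genes is printed here because these genes gave the range of responses to LPS described below, from a fall (Fos) through no call (Jun) to the steepest rises (Batf, Maff), and each window shown held a match to a cyclic AMP response element (CRE) or to part of one. RefSeq windows on GRCm38.p6, from 250 bases before to 50 after a start, were found for 10 of 10 genes (12 windows, since Maff has 3). The RefSeq start of Jund lay 1210 bases from its nearest GENCODE start, and that of Fosl2 299 bases. Neither window holds a GENCODE start, so the DNA just before the GENCODE starts of Jund and Fosl2 was not searched. Only the bases upstream of the annotated start are shown, 5′ to 3′ on the gene's strand, in lower case with matches in capitals.
Fos, chr12:85473640-85473889, plus strand: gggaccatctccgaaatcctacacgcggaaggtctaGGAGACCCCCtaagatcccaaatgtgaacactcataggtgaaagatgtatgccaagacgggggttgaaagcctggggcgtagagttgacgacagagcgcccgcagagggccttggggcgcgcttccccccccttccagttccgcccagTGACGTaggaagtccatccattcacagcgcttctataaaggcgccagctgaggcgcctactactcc
Jun, chr4:95052223-95052472, minus strand: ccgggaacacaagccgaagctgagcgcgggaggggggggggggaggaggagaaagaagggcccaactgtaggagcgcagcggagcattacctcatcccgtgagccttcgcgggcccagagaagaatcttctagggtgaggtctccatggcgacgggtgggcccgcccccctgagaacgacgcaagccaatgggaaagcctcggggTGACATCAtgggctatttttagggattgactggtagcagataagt
Batf, chr12:85686470-85686668, plus strand: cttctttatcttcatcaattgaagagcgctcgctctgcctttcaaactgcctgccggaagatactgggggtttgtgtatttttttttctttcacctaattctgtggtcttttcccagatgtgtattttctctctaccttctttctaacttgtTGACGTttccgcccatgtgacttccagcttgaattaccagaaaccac
Maff, chr15:79347270-79347519, plus strand, before the second of its starts: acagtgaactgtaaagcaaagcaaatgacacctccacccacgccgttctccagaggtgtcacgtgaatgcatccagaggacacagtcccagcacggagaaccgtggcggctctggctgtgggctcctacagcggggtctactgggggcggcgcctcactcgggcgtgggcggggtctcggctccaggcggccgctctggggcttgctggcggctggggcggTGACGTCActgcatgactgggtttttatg
The letters searched on both strands were TGANTCA (an AP-1 site, in 7.81% of 32851 windows of all genes), TGACNTCA (CRE-like, 8.83%) and TGACGT (a shorter CRE core, 7.51%, which can lie inside the former), together with the κB consensus (8.46%) and the CArG box (1.63%) by name. Of the 12 windows, 3 held the CRE-like letters, namely Jun at 45 bases before the start and Maff at 29 and at 45 bases before 2 of its starts. The shorter core was found in 4 windows, at 66 bases before the start of Fos, 98 of Batf, 22 of Mafg and 29 of Maff. These distances are counted from the RefSeq start. For Batf that start lies 51 bases downstream of the nearest GENCODE start, before which the printed sequence stops. A κB consensus match was found in 4 windows, those of Fos (214 bases before the start, in capitals above), Fosb, Fosl2 and the downstream start of Maff. No window held the AP-1 site or the CArG box, which says only that these letters are not within these 300 bases. Matches are descriptions of the letters, not binding sites, and the expression data do not tell which start of Maff was used.

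Before LPS, the Jun genes stood far above the Fos genes. Per length of transcript (TPM, transcript abundance scaled to one total per library), Junb had the highest level of the 10 in WT, at 274 ± 15.8 (SD, n = 3 here and throughout). Jund followed at 136 ± 7.07, Mafg at 63.0 ± 1.45 and Batf3 at 61.6 ± 3.62, and the last 2 overlapped. Jun at 21.5 ± 0.750 and Batf at 21.3 ± 2.29 overlapped as well, as did Fos at 9.83 ± 1.25 with Fosl2 at 7.77 ± 0.625, and Fosl2 with Maff at 7.77 ± 0.480. Fosb was the lowest, at 0.333 ± 0.121 TPM, and rested on 13 to 32 counts per library over the whole series. After LPS the order was different, with Batf next after Jund at 97.0 ± 2.44 TPM, apart from Mafg at 80.5 ± 7.84, followed by Maff at 42.2 ± 1.49. In WTL + JSH23, Mafg was in second place at 158 ± 10.5 TPM, above all libraries of Jund at 137 ± 4.46. Junb was first and Fosb was last in all 4 groups.

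**Figure D1:**
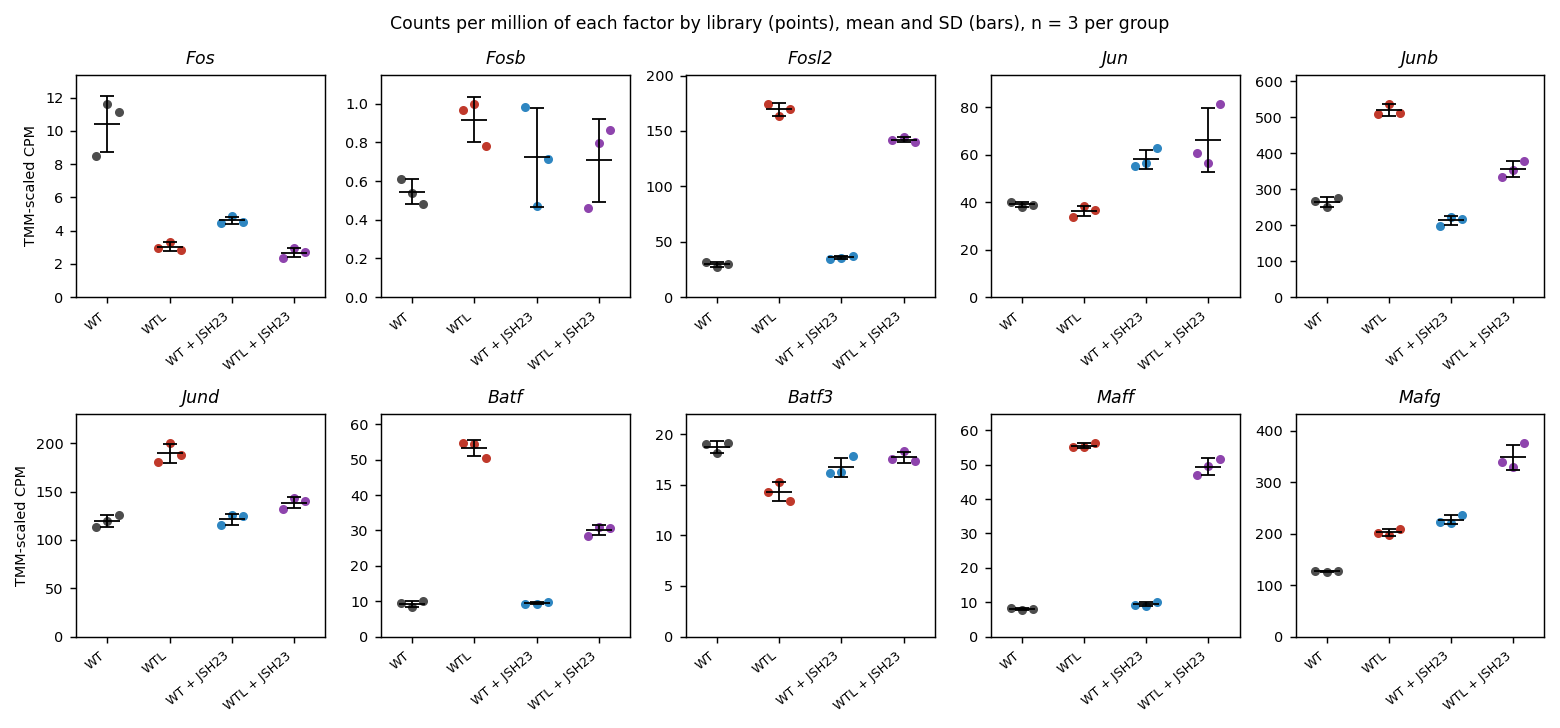
TMM-scaled CPM of the 10 genes (vertical axes, linear, from 0) in WT, WTL, WT + JSH23 and WTL + JSH23, with one point per library and bars for mean and SD (n = 3). Fosl2, Batf and Maff stand high in both LPS groups, Fos is highest in WT (mean 10.4 CPM), Jun and Mafg stand higher in the JSH-23 groups than in WT, and the libraries of Fosb are spread over less than 1 CPM.

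To see how LPS changed these factors when JSH-23 was absent, WTL was compared with WT. At an adjusted p under 0.05, 9 of 10 passed, 7 of them higher and 2 lower, where 65.7% of all genes tested passed (31% higher and 34.7% lower). Libraries did not overlap for the same number of members, 9, against 69.9% of all genes, so passing alone says little about the family. A change of more than 2-fold was reached by 4 of 10 (Fosl2, Batf and Maff upwards, Fos downwards) and by 16.4% of all genes (7.36% higher, 9.09% lower). The median log2 fold change of the 10 was 0.71, beside -0.05 over all genes tested.

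Among the Jun genes, Junb, the most abundant AP-1 gene here, had 267, 249.9 and 276 CPM in WT replicates 4, 5 and 6 and 508, 537 and 512 CPM in WTL replicates 4, 5 and 6. All WTL libraries lay above all WT libraries, a rise of 1.96-fold (log2 fold change 0.97, SE 0.051, adjusted p = 3.27e-13). Jund, usually the constitutive member, had 113, 119.6 and 126 CPM in WT and 180.4, 201 and 188 CPM in WTL. It rose as well, by 0.67 on the log2 scale (SE 0.049, adjusted p = 1.17e-10), with no overlap. Jun itself, the founding member, had 40.3, 38.2 and 38.8 CPM in WT and 34.0, 38.3 and 36.8 CPM in WTL. The Jun libraries overlapped and the difference did not pass (log2 fold change -0.10, SE 0.096, adjusted p = 0.361), whereas on deposited TPM by limma it was -0.41 (adjusted p = 0.00374), a scale on which the median of all genes moved by -0.29. Exons of Jun overlap the antisense gene Junos (at most 12.1 counts in a library), those of Jund the antisense gene Gm11175 (at most 5.26) and those of Junb the gene Prdx2, which fell from 136 ± 4.29 to 115 ± 0.967 CPM with LPS. Whether reads were counted by strand is not given in the sources used here.

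The Fos genes split. Fos had 8.47, 11.6 and 11.1 CPM in WT and 2.98, 3.33 and 2.81 CPM in WTL. Every WTL library was below every WT library, and the fall was 3.40-fold (log2 fold change -1.76, SE 0.13, adjusted p = 8.23e-11). Fosl2, which encodes Fra-2, a Fos protein without the strong activation domain of Fos, moved the other way, from 31.4, 27.5 and 29.9 CPM in WT to 175, 164 and 169.98 CPM in WTL. This was 5.72-fold higher (log2 fold change 2.52, SE 0.049, adjusted p = 2.17e-20). Fosb had 0.612, 0.541 and 0.483 CPM in WT and 0.969, 1.000 and 0.783 CPM in WTL, on 14 to 30 counts. Its libraries did not overlap and its log2 fold change was 0.75 (SE 0.31, adjusted p = 0.0408), a call that was lost without any one of WTL replicates 4 and 5 and WT replicates 4, 5 and 6 (adjusted p = 0.0508 to 0.115), in DESeq2 (adjusted p = 0.0958), with upper quartile scaling (adjusted p = 0.0649) and without the filter on low counts (adjusted p = 0.0566). On TPM, Fosb had 0.333 ± 0.121 in WT and 0.340 ± 0.0361 in WTL, and its difference by limma was 0.011 on the log2(TPM + 1) scale (adjusted p = 0.937).

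Batf, the partner of Jun proteins at IRF composite elements, went from 9.45, 8.22 and 9.97 CPM in WT to 54.7, 54.5 and 50.6 CPM in WTL. The groups lay far apart, at 5.81-fold (log2 fold change 2.54, SE 0.065, adjusted p = 1.79e-18). Its relative Batf3 had 19.1, 18.1 and 19.1 CPM in WT and fell to 14.3, 15.3 and 13.4 CPM in WTL, without overlap (log2 fold change -0.38, SE 0.065, adjusted p = 2.38e-05). Maff showed the largest fold of the 10, from 8.38, 7.74 and 8.04 CPM in WT to 55.2, 55.2 and 56.4 CPM in WTL. The 3 WTL libraries differed by less than 2 CPM, and the change was 6.90-fold (log2 fold change 2.79, SE 0.059, adjusted p = 8.50e-20). Mafg, the more abundant small Maf, had 127, 126 and 127 CPM in WT and 202, 197 and 209 CPM in WTL, a rise of 0.68 on the log2 scale (SE 0.046, adjusted p = 3.08e-11). Its exons overlap Sirt7 on the same strand, whose difference did not pass (63.2 ± 0.784 CPM in WT and 60.4 ± 1.25 in WTL, adjusted p = 0.208).

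**Figure D2:**
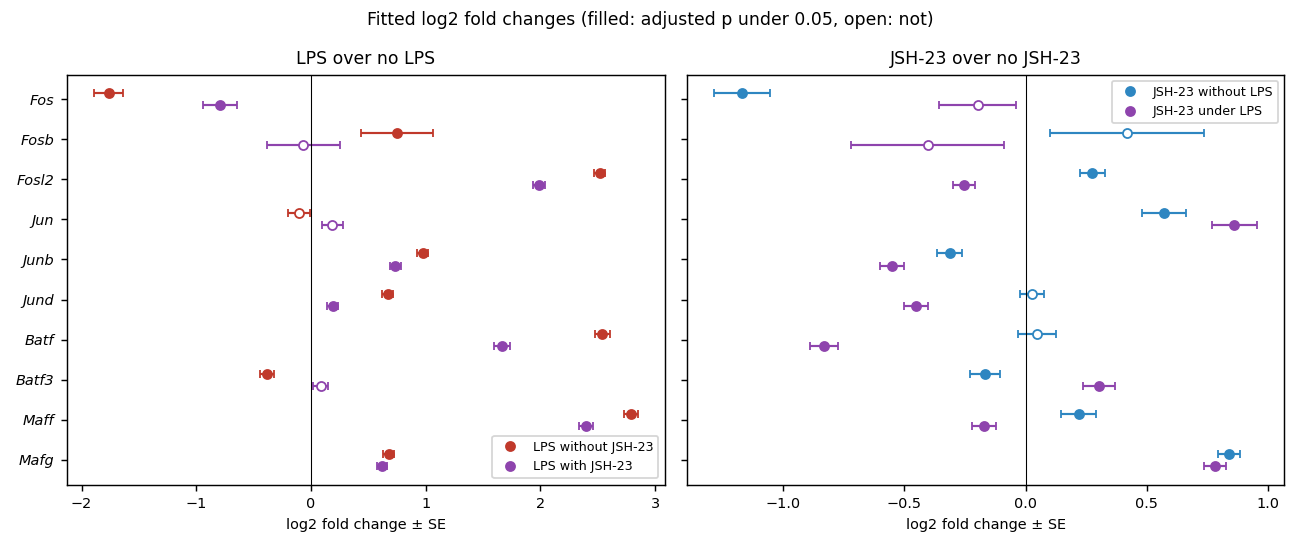
Fitted log2 fold changes with their SE (horizontal axes) of the 10 genes for LPS over no LPS (left) and JSH-23 over no JSH-23 (right), filled where the adjusted p was under 0.05. Fosl2, Batf and Maff lie between 2.52 and 2.79 without JSH-23 and between 1.66 and 2.40 with it, and under LPS the JSH-23 changes of Batf (-0.83) and Jun (0.86) point in opposite directions.

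The same contrast after JSH-23, WTL + JSH23 against WT + JSH23, shares no library with the first. Here 7 of 10 passed, 6 higher and Fos lower, with 54.5% of all genes passing (27.4% higher, 27.1% lower). Libraries did not overlap for 7 of 10, against 59.1% of all genes. Fosl2, Batf and Maff were again the members over 2-fold, a size reached by 10.3% of all genes (5.85% higher, 4.49% lower). Batf went from 9.31, 9.30 and 9.84 CPM in WT + JSH23 to 28.5, 31.0 and 30.6 CPM in WTL + JSH23. All libraries with LPS were above those without, at 3.16-fold (log2 1.66, SE 0.069, adjusted p = 1.14e-14). Fosl2 went from 34.6, 35.4 and 37.5 CPM to 142, 145 and 139.8 CPM (log2 fold change 1.99, SE 0.049, adjusted p = 1.71e-18). Maff went from 9.13, 8.94 and 10.04 CPM to 46.9, 49.7 and 51.7 CPM (log2 fold change 2.40, SE 0.059, adjusted p = 1.87e-18).

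The other members that passed after JSH-23 changed by less than 2-fold. Junb rose from 198, 223 and 218 CPM to 334, 352 and 378 CPM (log2 fold change 0.74, adjusted p = 7.30e-11), and Mafg from 222, 221 and 237 CPM to 339, 330.3 and 376 CPM (log2 fold change 0.62, adjusted p = 1.36e-10), both without overlap. Jund, at 115, 125 and 124 CPM without LPS and 132, 143 and 141 CPM with it, rose by 0.19 on the log2 scale (SE 0.050, adjusted p = 0.00287), and this was -0.02 on TPM by limma, where the median of all genes moved by -0.18, and did not pass with upper quartile scaling (adjusted p = 0.0759). Fos fell from 4.49, 4.88 and 4.53 CPM to 2.37, 2.94 and 2.72 CPM, still without overlap (log2 fold change -0.79, SE 0.15, adjusted p = 9.62e-05). Jun, Fosb and Batf3 did not pass, with log2 fold changes of 0.19, -0.07 and 0.08. Of these, Jun had one high library, WTL + JSH23 replicate 3 at 81.6 CPM beside 60.9 and 56.5 CPM, and passed without any one of WTL + JSH23 replicates 1 and 2 and WT + JSH23 replicate 3 (adjusted p = 0.00657 to 0.0420), while the adjusted p was 0.841 in the fit that left out the high one.

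Whether the LPS change differed with and without JSH-23 was tested by the interaction, the log2 fold change with JSH-23 minus that without. It passed for 7 of 10 members, 2 positive and 5 negative, beside 18% of all genes (9.54% positive, 8.44% negative). None of the 7 was over 2-fold, a size that 1.34% of all genes reached (0.933% positive, 0.404% negative). The negative ones were Batf at -0.88 (SE 0.097, adjusted p = 2.97e-06), Fosl2 at -0.53 (SE 0.069, adjusted p = 1.60e-05), Jund at -0.48 (SE 0.070, adjusted p = 6.28e-05), Maff at -0.39 (SE 0.087, adjusted p = 0.00345) and Junb at -0.24 (SE 0.072, adjusted p = 0.0249). For these 5 genes the rise with LPS was smaller on the log2 scale after JSH-23. In CPM, the mean gain of Jund with LPS after JSH-23 was 24.3% of that without, that of Batf 46.7%, Junb 55.6%, Fosl2 76.0% and Maff 84.3%. Fos was positive at 0.97 (SE 0.20, adjusted p = 0.00166), a fall that was smaller after JSH-23, and Batf3 was positive at 0.47 (SE 0.091, adjusted p = 0.00112). The call for Junb was lost without any one of WTL + JSH23 replicate 1, WT + JSH23 replicates 2 and 3, WTL replicate 5 and WT replicate 5 (adjusted p = 0.0610 to 0.0851). On TPM by limma, the interactions of Maff (-0.20, adjusted p = 0.143) and Junb (-0.11, adjusted p = 0.390) did not pass, where the median of all genes moved by 0.11. Jun (0.29, adjusted p = 0.137), Fosb (-0.82, SE 0.45, adjusted p = 0.228) and Mafg (-0.06, adjusted p = 0.607, and 0.16 on TPM) did not pass, and Jun passed without WTL + JSH23 replicate 2 (adjusted p = 0.0253).

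**Figure D3:**
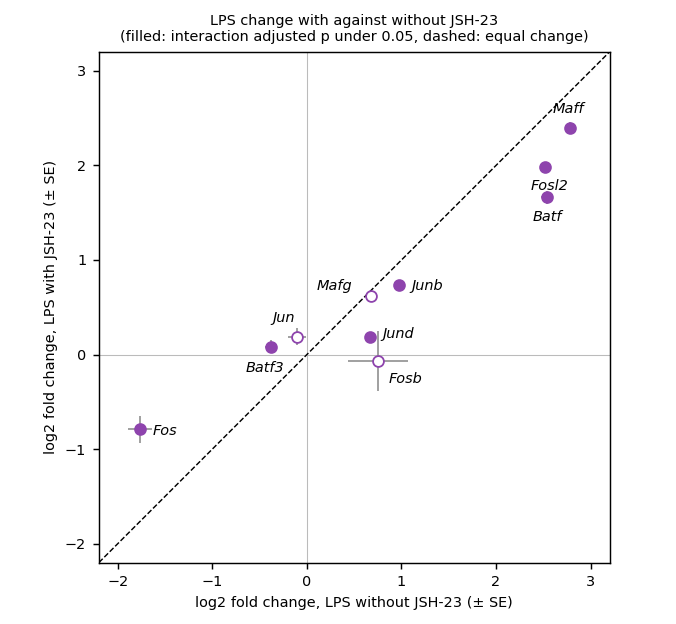
Log2 fold change with LPS without JSH-23 (horizontal axis) against that with JSH-23 (vertical axis) for the 10 genes, with SE bars, filled where the interaction had an adjusted p under 0.05. Points on the dashed line changed equally. Maff, Fosl2, Batf, Junb and Jund lie below it, with interactions from -0.24 to -0.88, and Fos (0.97) and Batf3 (0.47) above it.

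The effect of JSH-23 on cells without LPS was read from WT + JSH23 against WT. Of the 10 genes 7 passed, 4 higher and 3 lower, where 41% of all genes did (18.8% higher, 22.1% lower), and libraries did not overlap for 7 of 10 against 51.5% of all genes. Fos had the largest change of the family, from 8.47, 11.6 and 11.1 CPM in WT to 4.49, 4.88 and 4.53 CPM in WT + JSH23. All JSH-23 libraries were lower, at 2.25-fold (log2 fold change -1.17, SE 0.12, adjusted p = 3.71e-08), and Fos was the only member over 2-fold (5.37% of all genes, 2.43% higher and 2.94% lower). Mafg went from 127, 126 and 127 CPM to 222, 221 and 237 CPM (log2 fold change 0.84, SE 0.046, adjusted p = 3.39e-12). Jun went from 40.3, 38.2 and 38.8 CPM to 55.2, 56.4 and 62.8 CPM (log2 fold change 0.57, SE 0.091, adjusted p = 2.53e-05). Both stood higher in each JSH-23 library than in any WT library.

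Smaller changes were found for the other members in cells without LPS. Junb was lower (log2 fold change -0.31, adjusted p = 3.54e-05) and Fosl2 higher (0.28, adjusted p = 2.06e-04). Maff was higher by 0.22 (adjusted p = 0.0192), a call lost without WT + JSH23 replicate 3 or WT replicate 5 (adjusted p = 0.114 and 0.0811). Batf3 was lower (log2 fold change -0.17, adjusted p = 0.0377), which did not pass in DESeq2 (adjusted p = 0.121) nor without any one of WT + JSH23 replicates 1 and 2 and WT replicates 4 and 6 (adjusted p = 0.106 to 0.142). Jund (0.03), Batf (0.05) and Fosb (0.42, SE 0.32) did not pass.

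Under LPS, WTL + JSH23 was compared with WTL, which shares its libraries with the contrasts above. Here 8 of 10 passed, 3 higher and 5 lower, beside 48.7% of all genes (24.5% higher, 24.2% lower), libraries did not overlap for 8 of 10 against 54.8% of all genes, and no member passed 2-fold (7% of all genes did, 3.75% higher and 3.25% lower). Batf fell most, from 54.7, 54.5 and 50.6 CPM in WTL to 28.5, 31.0 and 30.6 CPM in WTL + JSH23 (1.78-fold, log2 fold change -0.83, SE 0.057, adjusted p = 9.02e-11). Its libraries with JSH-23 stayed above all libraries without LPS, the highest of which had 9.97 CPM. Junb fell from 508, 537 and 512 CPM to 334, 352 and 378 CPM (log2 fold change -0.55, adjusted p = 8.29e-09). Jund fell from 180.4, 201 and 188 CPM to 132, 143 and 141 CPM (log2 fold change -0.45, adjusted p = 1.14e-07). Fosl2 and Maff were lower by less, at -0.25 (adjusted p = 5.65e-05) and -0.17 (adjusted p = 0.00601) on the log2 scale. On TPM by limma neither of these passed (-0.12 and -0.03, with the median of all genes at 0.11), and Maff did not pass without WTL + JSH23 replicate 1 (adjusted p = 0.0573).

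The 3 members that were higher with JSH-23 under LPS were Jun, Mafg and Batf3. Jun had 34.0, 38.3 and 36.8 CPM in WTL and 60.9, 56.5 and 81.6 CPM in WTL + JSH23. There was no overlap, the log2 fold change was 0.86 (SE 0.094, adjusted p = 1.16e-07), and it was 0.69 without WTL + JSH23 replicate 3. Mafg had 202, 197 and 209 CPM and 339, 330.3 and 376 CPM (log2 fold change 0.78, SE 0.045, adjusted p = 5.54e-12). Jun and Mafg were thus higher with JSH-23 in both conditions, by 0.57 and 0.86 for Jun and by 0.84 and 0.78 for Mafg without and with LPS. Batf3 had 14.3, 15.3 and 13.4 CPM and 17.5, 18.3 and 17.3 CPM (log2 fold change 0.30, SE 0.067, adjusted p = 7.53e-04), which put it within the range of WT + JSH23 libraries (16.1 to 17.8 CPM) except for its highest library. Fos did not pass (2.98, 3.33 and 2.81 CPM against 2.37, 2.94 and 2.72 CPM, log2 fold change -0.20, adjusted p = 0.329, and 0.09 on TPM), and neither did Fosb (log2 fold change -0.40, SE 0.31, adjusted p = 0.310).

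Because AP-1 works as dimers, the makeup of each family was computed as the share of a gene in the TPM summed over the measured Jun genes, Fos genes or small Maf genes (Fosl1 and Mafk are not in the sums). Fosl2 made up 43.4% ± 4.70 of the Fos sum in WT, 92.3% ± 0.602 in WTL, 65.6% ± 0.672 in WT + JSH23 and 91.1% ± 1.37 in WTL + JSH23. Fos made up 54.7% ± 5.31 in WT, where the shares of the pair overlapped (Fosl2 39.6 to 48.7% and Fos 48.6 to 58.6%), and 31.5% ± 1.52 in WT + JSH23, below Fosl2 in every library. By scaled counts, which do not correct for length, Fosl2 was above Fos in WT as well, at 73.0% against 25.6%. The sum itself went from 17.9 ± 0.664 TPM in WT to 38.3 ± 1.52 TPM in WTL. The Fosl2 shares of WTL and WTL + JSH23 overlapped (difference -1.23 percentage points, two-sided exact permutation p = 0.3), while each of the other 3 contrasts of this share was without overlap. With 3 libraries against 3 an exact permutation test cannot give a p under 0.1, so none of the 32 tests of shares could pass.

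Junb made up 63.5% ± 1.23 of the Jun sum in WT, 69.5% ± 0.566 in WTL, 56.4% ± 0.602 in WT + JSH23 and 65.4% ± 0.216 in WTL + JSH23. It was the largest part in each library, higher with LPS and lower with JSH-23, and all 4 contrasts were without overlap. Jun, by contrast, made up only 4.98% ± 0.228 in WT and 2.59% ± 0.0831 in WTL, and 8.17% ± 0.477 and 6.47% ± 0.994 in the matching JSH-23 groups. Maff made up 11.0% ± 0.458 of the small Maf sum in WT, 34.5% ± 1.35 in WTL, 7.45% ± 0.402 in WT + JSH23 and 20.8% ± 1.05 in WTL + JSH23. The Maff share was thus higher with LPS and lower with JSH-23, with no overlap in any of the 4 contrasts (difference with JSH-23 under LPS -13.6 percentage points, two-sided exact permutation p = 0.1). Under LPS, the lower share with JSH-23 went with the level of Mafg more than with that of Maff. There Maff had 42.2 ± 1.49 TPM without and 41.4 ± 1.83 TPM with JSH-23, and Mafg 80.5 ± 7.84 and 158 ± 10.5 TPM. In CPM, Maff was lower there, at 49.4 ± 2.39 with and 55.6 ± 0.664 without JSH-23. The higher share in WTL than in WT went with Maff itself, at 7.77 ± 0.480 TPM in WT, beside 63.0 ± 1.45 TPM for Mafg.

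**Figure D4:**
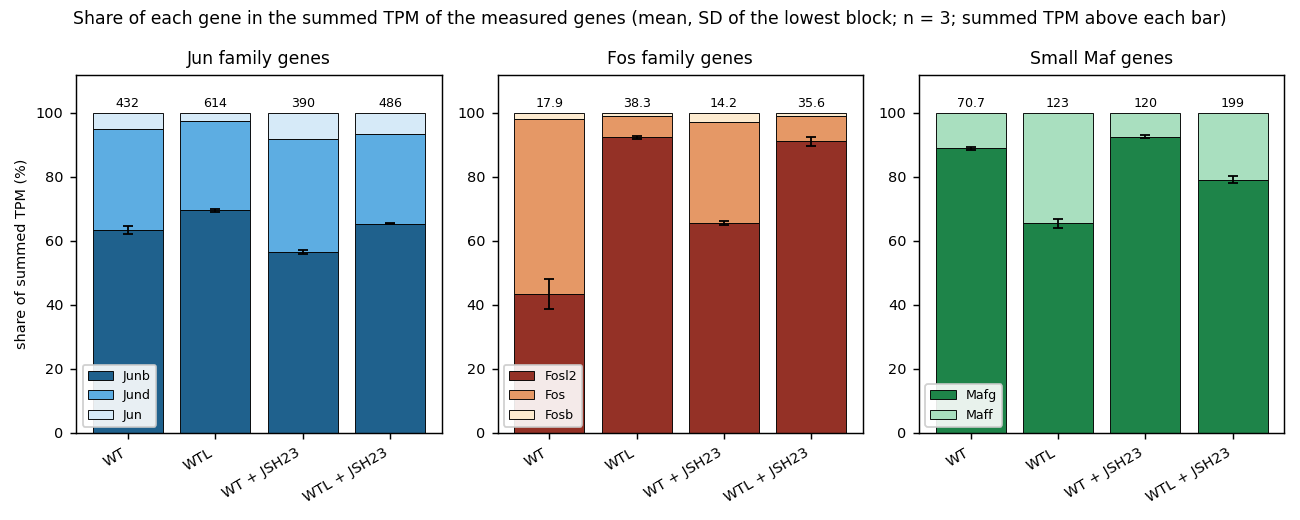
Share of each gene (vertical axis, percent) in the TPM summed over the measured Jun, Fos or small Maf genes in the 4 groups, as stacked means of 3 libraries with the SD of the lowest block and the summed TPM above each bar. The Fosl2 block grows from 43.4% in WT to 92.3% in WTL, and the Maff block (light green) is widest in WTL at 34.5%.

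Other genes of the AP-1, Maf and related basic leucine zipper families were taken from a list of 17, of which 16 were tested. With LPS, 7 were higher and 8 lower without JSH-23 (median log2 fold change -0.53, beside -0.05 over all genes), where 31% of all genes were higher and 34.7% lower. After JSH-23, 6 were higher and 8 lower (27.4% and 27.1% of all genes). Jdp2, a partner of Jun proteins known as a repressor, rose from 5.45 ± 0.163 to 43.4 ± 1.70 CPM (log2 fold change 2.99, adjusted p = 7.10e-18). Batf2, another relative of Batf, rose with LPS by 0.87 (adjusted p = 1.58e-11) and fell with JSH-23 under LPS from 68.9 ± 4.76 to 22.3 ± 1.27 CPM (log2 fold change -1.63, adjusted p = 8.37e-15), where Batf itself had a log2 fold change of -0.83. Of the 16, JSH-23 left 6 higher and 4 lower under LPS, with 48.7% of all genes passing, and 5 higher and 4 lower without it, with 41% passing. Bach1, a repressor that pairs with small Maf proteins, was higher with JSH-23 in both conditions (log2 fold change 0.88 under LPS and 0.40 without, adjusted p = 3.58e-11 and 1.89e-06), and the large Maf gene Maf lower (-2.30 and -1.93, adjusted p = 7.29e-15 and 1.03e-15).

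Among 24 kinases and transcription factors that act upstream of AP-1, 22 were tested. LPS left 11 higher and 5 lower without JSH-23, and 12 higher and 4 lower with it, where 65.7% and 54.5% of all genes passed. The medians were 0.12 and 0.15, beside -0.05 and -0.02 over all genes. The largest rises were those of Map3k8, the kinase that feeds the ERK pathway downstream of TLR4, from 24.1 ± 1.41 to 70.6 ± 6.17 CPM without JSH-23 (log2 fold change 1.55, adjusted p = 6.89e-15), and of Mapk8, which encodes the Jun kinase JNK1 (log2 fold change 1.28, adjusted p = 1.05e-13). The largest falls without JSH-23 were those of Mef2c (log2 fold change -0.94, adjusted p = 9.28e-05) and Mapk14. Mapk14 went from 88.6 ± 1.37 to 51.2 ± 2.15 CPM (log2 fold change -0.79, adjusted p = 1.16e-11). Map3k8 was lower with JSH-23 in both conditions (log2 fold change -0.91 under LPS and -0.61 without, adjusted p = 1.02e-10 and 6.64e-07). With JSH-23, 8 were higher and 8 lower under LPS, and 4 higher and 7 lower without LPS, against 48.7% and 41% of all genes passing.

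Of 16 genes known as AP-1 targets, 14 were tested, and LPS left 10 higher and 2 lower without JSH-23 and 11 higher and 1 lower with it, where 65.7% and 54.5% of all genes passed (31% and 27.4% as higher). The medians were 0.72 and 0.78, beside -0.05 and -0.02 over all genes. Ptgs2, the inducible cyclooxygenase, went from 98.0 ± 4.90 to 5312 ± 298 CPM without JSH-23 (log2 fold change 5.76, adjusted p = 1.09e-21), and Lif from 13.3 ± 1.43 to 147 ± 2.74 CPM (log2 fold change 3.47, adjusted p = 1.00e-19). JSH-23 under LPS left 6 higher and 6 lower, where 48.7% of all genes passed, with Vegfa at 1.54 and Plau at 1.48 the largest rises and Ccnd1 at -1.22 and Lif at -1.01 the largest falls on the log2 scale. These genes also have other regulators, and the list did not move in one direction with JSH-23.

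Of 12 genes known as targets of Nrf2 and small Maf dimers, all tested, 11 were higher with JSH-23 under LPS and none lower, where 24.5% of all genes were higher. Without LPS 11 were higher and 1 lower (18.8% and 22.1% of all genes), with medians of 0.86 and 0.83 beside 0.02 and -0.01 over all genes. The exception was G6pdx, the first enzyme of the pentose phosphate pathway, named here after its values were seen, at -0.08 under LPS (adjusted p = 0.0606) and -0.10 without it (adjusted p = 0.0291). Gclc, a subunit of the rate-limiting enzyme of glutathione synthesis, went from 44.9 ± 5.28 CPM in WTL to 173 ± 27.8 CPM in WTL + JSH23 (log2 fold change 1.96, adjusted p = 1.62e-13). Hmox1, which encodes heme oxygenase 1, went from 783 ± 18.1 CPM in WT to 2638 ± 157 CPM in WT + JSH23 (log2 fold change 1.75, adjusted p = 2.07e-14). Among the small Maf genes themselves, Mafg was higher in both contrasts, and Maff was higher by 0.22 on the log2 scale without LPS and had a log2 fold change of -0.17 under it. Mafk, the remaining small Maf gene, passed in neither, at 0.17 without LPS (adjusted p = 0.0966) and -0.005 under it (adjusted p = 0.968). Counts of a list are descriptions and do not show that the list differs from other genes.

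**Figure D5:**
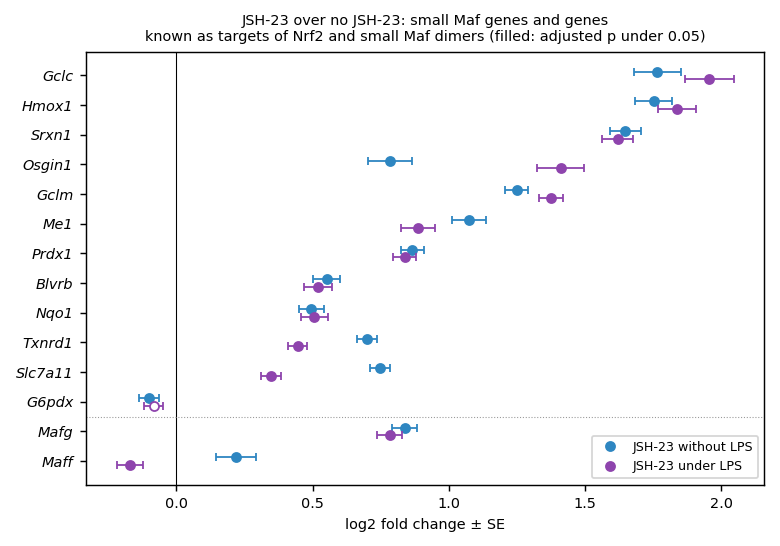
Fitted log2 fold change with JSH-23 (horizontal axis, with SE) without LPS and under LPS for 12 genes known as targets of Nrf2 and small Maf dimers, above the dotted line, and for Mafg and Maff below it, filled where the adjusted p was under 0.05. Gclc and Hmox1 lie furthest to the right at 1.75 to 1.96, Mafg at 0.78 and 0.84, and Maff on both sides of 0 at 0.22 without and -0.17 under LPS.

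Genes whose pattern was most like that of each member were sought among 9034 protein-coding genes with a mean of at least 5 CPM, by Pearson's r of log2 CPM over the 12 libraries, which share the 4 groups, so r describes mostly the differences between groups. For both Fosl2 and Maff this was Il6, a cytokine gene, at r = 0.999, with mean levels of 30.2 CPM in WT, 1845 in WTL, 46.7 in WT + JSH23 and 1230.2 in WTL + JSH23. Fosl2 and Maff were also the most alike pair within the family (r = 0.998). Batf was most like Rgs1 (r = 0.998), a regulator of G protein signalling, with means of 174, 633, 179.9 and 417 CPM in the same order. The partners of the others were Mafg with Kcmf1 (r = 0.996), Junb with Tdrd7 (0.995), Jun with Mroh1 (0.993), Fos with Klhl18 (0.986) and Jund with Csrp1 (0.975). Fosb (0.899, Bzw2) and Batf3 (0.882, Saal1) had the lowest values of the 10. Within the family, Jun was most like Mafg (r = 0.768), and Fos ran opposite to Fosl2 (r = -0.863).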

How the data were processed

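Bulk RNA-seq libraries were read from the deposited gene tables. By its methods and labels, the authors trimmed reads with Trim Galore, aligned them to mm10 with STAR (2.6.0c in the submitters' processing notes) and estimated genes with RSEM. The expected counts deposited by the authors sum read pairs over a gene's transcripts, splitting a pair that matches more than one gene, and are not normalized. The TPM values deposited by the authors are scaled by effective length to a common total, so they carry no depth. Counts were fractional for Jun in 9, Jund in 10 and Mafg in 3 libraries. The labels name a kit that depletes ribosomal RNA and the methods one that selects poly(A), and which applied was not settled here.

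Expected counts were rounded and filtered with filterByExpr, scaled by TMM and fitted over all 12 libraries and 4 groups with the quasi-likelihood F-test of edgeR 4.0.16 (R 4.3.3), with 8 residual degrees of freedom and Benjamini-Hochberg adjustment over all 14357 genes. Fold changes and adjusted p-values are from this fit unless another tool is named. The SE is the absolute log2 change divided by the square root of F. CPM are counts over the TMM-scaled library size, on its usual scale. Alternatives were DESeq2 1.42.0, other scalings and filters, limma 3.58.1 on log2(TPM + 1), fits to the groups compared, a block for the replicate number, a 2-fold rule, shares of scaled counts and leaving out each library. The code was tested on simulated data. All 10 members were named, with at most 2 rises and 2 falls per list and comparison considered for naming, those with more than 3 counts in every library and a mean of at least 1 CPM, and 1 gene that met this is not reported here. The members and lists were chosen with earlier results of these data known. Positions and symbols are from GENCODE M21 on the same build, and promoter sequences from RefSeq.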

Additional observations from a re-analysis of the deposited data

Results flagged for a closer look

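By the interaction term of edgeR, the LPS change was different after JSH-23 for 7 of the 10 genes. On the log2 scale the difference (with JSH-23 minus without) was 0.97 for Fos and 0.47 for Batf3. It was -0.88 for Batf, -0.53 for Fosl2, -0.48 for Jund, -0.39 for Maff and -0.24 for Junb. On TPM by limma, Maff and Junb did not pass, and the call for Junb was also lost in 5 fits that left out a library. The test passed for 18% of all genes tested.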

How the results depend on the processing

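Across the alternatives, 916 of the 965 recomputed fold changes of the 10 genes kept their direction and their side of the threshold. Requiring more than 2-fold left 4 members and 2361 genes for LPS without JSH-23, 3 and 1484 for LPS with JSH-23, 0 and 1005 for JSH-23 given before LPS, 1 and 771 for JSH-23 alone, and 0 and 192 for the interaction. On the scale of log2(TPM + 1) by limma, direction turned for Jun (-0.029), Jund (-0.017) and Batf3 (-0.16) for LPS with JSH-23, Fos under LPS (0.089) and the interaction of Mafg (0.16). That scale moved the median of all genes by -0.29, -0.18, 0.11 and 0.11 in LPS without and with JSH-23, JSH-23 under LPS and the interaction. Leaving out 1 library turned Fosb for LPS with JSH-23 (range -0.29 to 0.23, above 0 without replicate 1 of either JSH-23 group) and, for JSH-23 without LPS, Jund (-0.012 to 0.065, below 0 without WT replicate 4) and Batf (-0.034 to 0.10, below 0 without WT replicate 5), none of which had passed. The cause was not tested.

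By shares of scaled counts in place of TPM, which lets longer genes such as Fosl2 weigh more by construction, Fosl2 held 73.0, 97.7, 87.0 and 97.7% of the Fos sum in WT, WTL, WT + JSH23 and WTL + JSH23. In the same order Maff held 5.97, 21.5, 3.97 and 12.4% and Jun 9.25, 4.88, 14.8 and 11.8% of their sums, and Junb 54.2 and 63.4% in the JSH-23 groups.

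WT with WTL, and the JSH-23 groups with each other, share replicate numbers. Same-numbered libraries deviated together weakly (r from 0.014 to 0.061), and differently numbered ones mostly had a negative r (from -0.056 to 0.036). These values do not settle whether equal numbers are pairs, and the main fit did not use the numbers. For LPS without JSH-23, the block gave Jun a smaller SE (0.064 against 0.096) and Batf3 a larger one (0.069 against 0.065). With the replicate block, Fosb for LPS without JSH-23 did not pass (0.75, adjusted p = 0.0599), while Jun passed for LPS with JSH-23 (0.18, adjusted p = 0.0135) and in the interaction (0.28, adjusted p = 0.0264), and 27 of 30 values kept their call. No paired analysis was possible because groups with and without JSH-23 share no replicate numbers, for the JSH-23 contrasts. Depth limits Fosb (13 to 32 counts) most.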
